A study of Mus musculus with 58 samples.

Results

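The genes described here are Cyp1a1, Cyp1b1, Ahr, Ahrr, Arnt, Tiparp and Nqo1, which are the aryl hydrocarbon receptor, its partner, its repressors and its classical target genes. They were chosen by name, as 7 of the 20177 genes in the count tables, to compare cells treated with auxin with cells treated with dTAG-13 or DMSO. The choice was made with the reads of these genes in those comparisons already known. Their values are therefore given as a description without p-values. This includes untreated SLAM-seq cells of the 3 lines, because those libraries are the starting points of the comparisons that chose the genes. Where calls are counted in the comparisons that chose the genes, the counts are a description. The same holds for other genes of the pathway named in those comparisons.

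All libraries came from E14 mouse embryonic stem (mES) cells of the 129/Ola background, kept on gelatin in serum with leukaemia inhibitory factor, which was left out during treatment with retinoic acid. The study asked how loss of COMPASS, the complex that writes H3K4me3, changes transcription, and it removed subunits of the complex with small-molecule degrons. DPY30–mAID cells are a line in which DPY30 carries an auxin-inducible degron and the plant protein OsTIR1 is expressed from an inserted transgene. RBBP5–FKBP cells are a clonal line in which dTAG-13 removes RBBP5, and dKO cells are DPY30–mAID clones in which Kdm5a and Kdm5b, genes of H3K4 demethylases, were knocked out with Cas9. SLAM-seq covered DPY30–mAID cells at 0, 2, 8 and 24 h of auxin and RBBP5–FKBP cells at 0, 2, 8 and 24 h of dTAG-13, with 3 libraries per time point. It also covered dKO cells at 0, 2, 4, 8, 24 and 48 h of auxin, with 2 libraries per time point, and the ligands are taken from the study's methods because the labels of these libraries name the line and the time. Cells were labelled with 100 µM 4-thiouridine (4SU) for 60 min, so that reads from newly made RNA carry T>C conversions. Quant-seq, which counts unlabelled 3′ ends, followed DPY30–mAID cells in retinoic acid (RA) with auxin or DMSO for 8 h and 1, 2, 4 and 6 days, and in DMSO at 0 h, with 2 libraries per group. The ligand, the line and the clone cannot be told apart between DPY30–mAID and RBBP5–FKBP cells, and no wild-type or OsTIR1-only cells treated with auxin were analysed here.

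Depth was 1264241 to 2543632 counted reads in Quant-seq libraries, 1721185 to 2852331 in RBBP5–FKBP libraries, 2013350 to 2806821 in DPY30–mAID libraries and 5931269 to 7792404 in dKO libraries. The dKO libraries also differed in kind, with a mean of 11.2 T positions per read against 18.7 in the other lines, so line and library type cannot be told apart wherever dKO cells are compared with another line. Levels are given as CPM, the reads of a gene scaled to 1000000 counted reads of the library, and intervals and floors on low counts cover counting error only, because the libraries had no molecular identifiers. Both libraries of DMSO on day 6 hold the same values, so they entered as 1 library, which the fit takes to vary like the other groups. Among genes with 50 or more reads, the 2 auxin libraries of day 6 differed more than 2-fold at 319 of 5319 genes, against at most 0.457% in the other Quant-seq pairs, and in SLAM-seq the RBBP5–FKBP libraries stood furthest apart, with 7.18% for replicates 1 and 3 at 0 h and 8.10% for replicates 2 and 3 at 8 h. The study describes the SLAM-seq replicates as biological, and for Quant-seq the labels do not say that replicates were separate cultures, so those errors may be technical. Kdm5a was at 26.0–40.7 CPM in dKO and 61.1–107 CPM in DPY30–mAID SLAM-seq libraries and Kdm5b at 109–151 and 389–946 CPM, but 3′ reads do not show a Cas9 lesion, and the degrons act on protein. The 9 mES cell markers summed to 6400–10066 CPM in SLAM-seq, with no marker at 0 in any group. The 6 fibroblast markers, listed for feeder cells, summed to at most 6.91 CPM in DPY30–mAID and RBBP5–FKBP SLAM-seq libraries and to 12.7–25 CPM in dKO libraries. From 0 to 24 h the 6 neural markers went from a median of 109 to 55.8 CPM in DPY30–mAID, from 78.5 to 112 CPM in RBBP5–FKBP and from 44.5 to 37.8 CPM in dKO cells, and trophectoderm markers from 20.3 to 5.25, from 18.0 to 6.75 and from 21.5 to 11.7 CPM. Their part in the ligand values below was not tested.

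The aryl hydrocarbon receptor (AHR) is a ligand-activated transcription factor of the bHLH-PAS family. Without ligand it is held in the cytosol by chaperones such as HSP90 and p23, and with ligand it enters the nucleus, pairs with ARNT and binds DNA at a short core, GCGTG. Classical targets are Cyp1a1 and Cyp1b1, monooxygenases that oxidise aromatic compounds, and Ahrr and Tiparp, which in turn restrain the receptor. Many indole compounds are known ligands of AHR, and natural auxin is an indole. The labels name the degron ligand only as auxin.

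The start regions of the genes show where the core lies, from 250 bases before to 50 bases after each RefSeq start (GRCm38.p6). The core, read as GCGTG on either strand, was in 10639 of 32851 such regions (32.4%), and 3 or more copies were in 3.91%. It was in 5 of the 6 regions found for these genes, with 3 copies in Ahrr, 1 copy each in Cyp1a1, Cyp1b1, Tiparp and Arnt, and none in Nqo1. A match is a description of the sequence and not a bound site. Below are 25 bases around each core of the target genes and of Arnt, 5′ to 3′, with the core in capitals.
Cyp1a1, chr9:57697549-57697573, plus strand, core 54 bases before the start: agataaggagGCGTGgccaacagac
Cyp1b1, chr17:79715123-79715147, plus strand, opposite to the gene, core 76 bases before the start: agggggtgggGCGTGaggggcggga
Ahrr, chr13:74292424-74292448, minus strand, core 107 bases before the start: ttgaaagggcGCGTGgcaggcaggg
Ahrr, chr13:74292399-74292423, minus strand, core 82 bases before the start: acaaggatgtGCGTGcgccctctgc
Ahrr, chr13:74292344-74292368, minus strand, core 27 bases before the start: ggggcggctcGCGTGctggggtggg
Tiparp, chr3:65528267-65528291, minus strand, opposite to the gene, core 170 bases before the start: cctcccgtgcGCGTGctccggacgg
Arnt, chr3:95434351-95434375, plus strand, core 29 bases before the start: atagtttgggGCGTGtcttctgccc

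Cyp1a1 (ENSMUSG00000032315, chr9:57687928-57703824 in GRCm38, plus strand) was read almost only in libraries with auxin. Its counted interval lies in the 3′ UTR at chr9:57702880-57703824. In SLAM-seq it had 580 reads in 15 of 19 auxin libraries and 1 read in 1 of 17 libraries without auxin. None of the 12 RBBP5–FKBP libraries had a read in 26419602 counted reads, which allows a level of up to 0.114 CPM at a floor of 3 counts. In Quant-seq it had 657 reads in 9 of 10 auxin libraries and 3 reads in 3 of 11 DMSO libraries. In these bulk libraries fewer cells with the RNA and less RNA per cell cannot be told apart.

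The time course of Cyp1a1 in dKO cells began with 0 and 1 reads at 0 h, 34 and 17 at 2 h, 9 and 6 at 4 h, 15 and 15 at 8 h, 96 and 130 at 24 h and 59 and 178 at 48 h. Every auxin library of the dKO cells lay above both 0 h libraries, the 2 h libraries lay above those of 4 h and 8 h in CPM, and the highest values came at 24 and 48 h. As levels these were 0 and 0.128 CPM at 0 h, 4.95 and 2.34 at 2 h, 1.28 and 1.01 at 4 h, 2.25 and 2.28 at 8 h, 13.8 and 19.7 at 24 h, and 8.99 and 26.4 at 48 h. Against the single read at 0 h, the pooled ratio was 52.7 (95% exact counting interval 9.04–2120) at 2 h, 33.1 (5.49–1348) at 8 h and 243 (43.2–9647) at 24 h. DPY30–mAID cells had fewer reads and a later onset. They had no read in the 6 libraries of 0 and 2 h, which allows up to 0.431 CPM at 2 h, 1, 3 and 0 reads at 8 h, and 8, 2 and 7 reads at 24 h, which was 3.21, 0.970 and 2.83 CPM. At 24 h this was at least 6.14-fold higher than at 0 h, with the 0 h group taken at 3 counts.

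Cyp1a1 was also seen among reads with T>C conversions. Before auxin the dKO libraries had none, after 24 h they had 15 and 12, and after 48 h 2 and 12. For DPY30–mAID cells the 24 h libraries had 4, 0 and 5. Its 660 reads in Quant-seq, which had no 4SU, held no T>C read, which allows a share of up to 0.455%.

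In RA and auxin, Cyp1a1 had 1 and 0 reads at 8 h, 53 and 37 on day 1, 128 and 129 on day 2, 113 and 116 on day 4 and 73 and 7 on day 6. The levels were 0.461 and 0 CPM, 30.9 and 23.8, 69.2 and 77.1, 70.1 and 68.8, and 50.2 and 5.54 CPM. The DMSO libraries had at most 1 read each. On days 1 to 6 every auxin library thus exceeded every DMSO library, with replicate 2 of day 6 far below replicate 1. The pooled auxin level was at least 33.5-fold higher than DMSO on day 1 and at least 99.4-fold higher on day 2. The ratio was 152 (41.5–1259) on day 4, against 2 DMSO reads, and 66.8 (11.6–2670) on day 6, against 1 read.

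**Figure D1:**
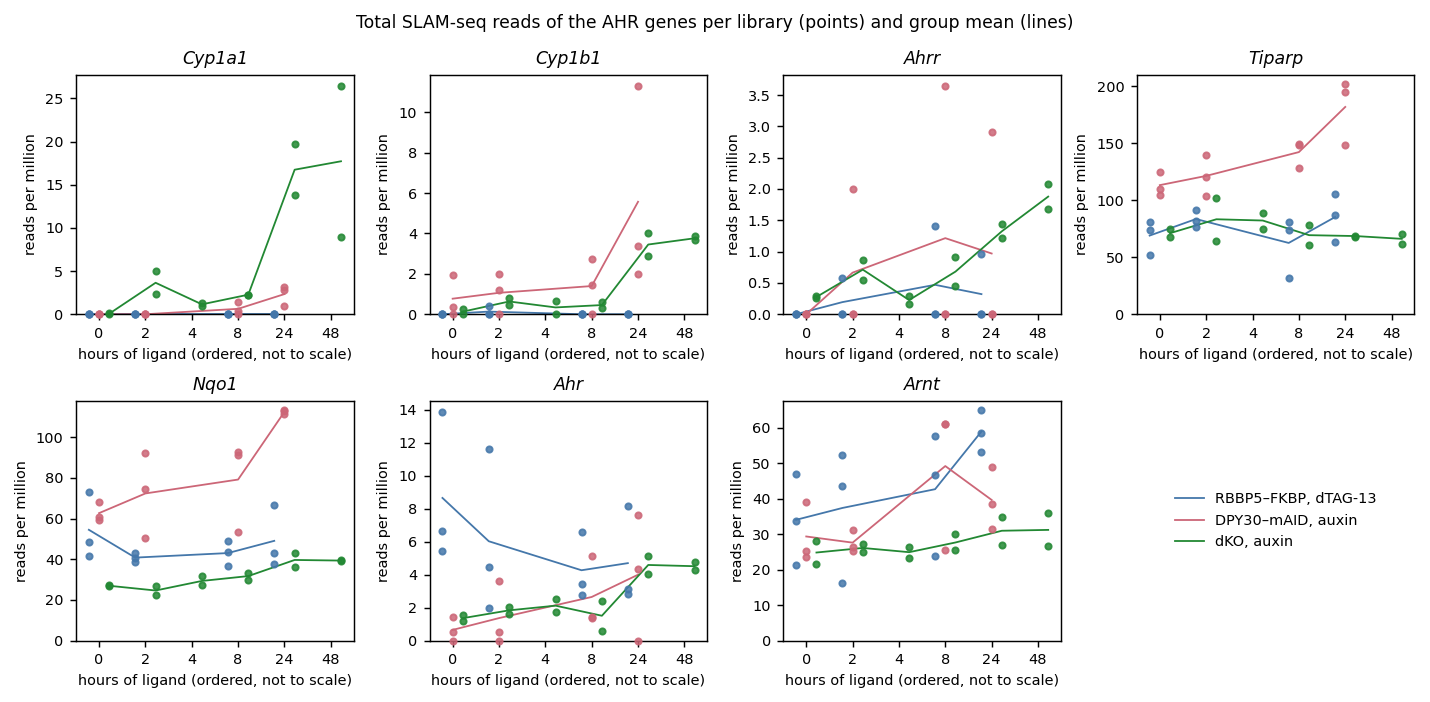
Total SLAM-seq reads (CPM) of each of the 7 genes (y axis, scaled per gene from 0) against hours of ligand, drawn in order and not to scale. Points are libraries and lines join group means for RBBP5–FKBP cells in dTAG-13, DPY30–mAID cells in auxin and dKO cells in auxin. Cyp1a1 stays at 0 in all 12 RBBP5–FKBP libraries and reaches 26.4 CPM in dKO cells at 48 h, while Nqo1 in DPY30–mAID cells goes from 59.1–68.1 CPM at 0 h to 112–113 CPM at 24 h.

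Cyp1b1 (ENSMUSG00000024087, chr17:79701537-79715061, minus strand), the CYP1 enzyme that also metabolises oestradiol and retinoids, was also read mostly in libraries with auxin. It had 172 reads in 16 of 19 auxin SLAM-seq libraries, against 8 reads in 4 of 17 libraries without auxin and 1 read in the 12 RBBP5–FKBP libraries. DPY30–mAID cells had 4, 1 and 0 reads at 0 h and 5, 7 and 28 at 24 h. The pooled ratio was 8.66 (3.42–28.1), but the 28 reads of replicate 3 were more than those of the other replicates together, and replicates 1 and 2 lay close to the 4 reads of 0 h replicate 1. In dKO cells it had 0 and 2 reads at 0 h, 28 and 19 at 24 h and 24 and 26 at 48 h. The dKO ratio was 25.3 (6.62–215) at 24 h and 27.4 (7.21–233) at 48 h, and the groups did not overlap.

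In Quant-seq the Cyp1b1 reads with auxin were 0 and 0 at 8 h, 4 and 2 on day 1, 23 and 18 on day 2, 26 and 28 on day 4 and 20 and 19 on day 6. With DMSO they were 0 in all libraries up to day 1, 1 and 1 on day 2, 3 and 5 on day 4 and 7 in the library of day 6. Both arms had more reads at later days, with the auxin libraries above the DMSO libraries on each of days 1, 2, 4 and 6. The pooled ratio of auxin to DMSO was 23.8 (6.18–203) on day 2, 8.93 (4.22–21.7) on day 4 and 4.65 (2.06–12.3) on day 6.

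Ahrr (ENSMUSG00000021575, chr13:74211118-74292331, minus strand), which encodes the repressor that competes with AHR for ARNT, was at the limit of detection without auxin. In Quant-seq its auxin libraries had 1 and 1 reads at 8 h, 3 and 4 on day 1, 11 and 12 on day 2, 10 and 13 on day 4 and 13 and 6 on day 6. No DMSO library had more than 1 read. The pooled ratio was 26.7 (4.33–1099) on day 2 and 15.2 (3.76–133) on day 4, and auxin was at least 5.29-fold higher on day 6. Ahrr in dKO cells had 2 and 2 reads at 0 h, 6 and 4 at 2 h, 2 and 1 at 4 h, 3 and 6 at 8 h, 10 and 8 at 24 h and 11 and 14 at 48 h. Reads at 4 h were no higher than those of 0 h. The ratio to 0 h was 4.84 (1.60–19.7) at 24 h and 6.86 (2.37–27.1) at 48 h. Only 3 of the 9 auxin libraries of DPY30–mAID cells held any read, 5, 8 and 6 in number, and RBBP5–FKBP cells had up to 3 reads in 3 of 12 libraries.

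**Figure D2:**
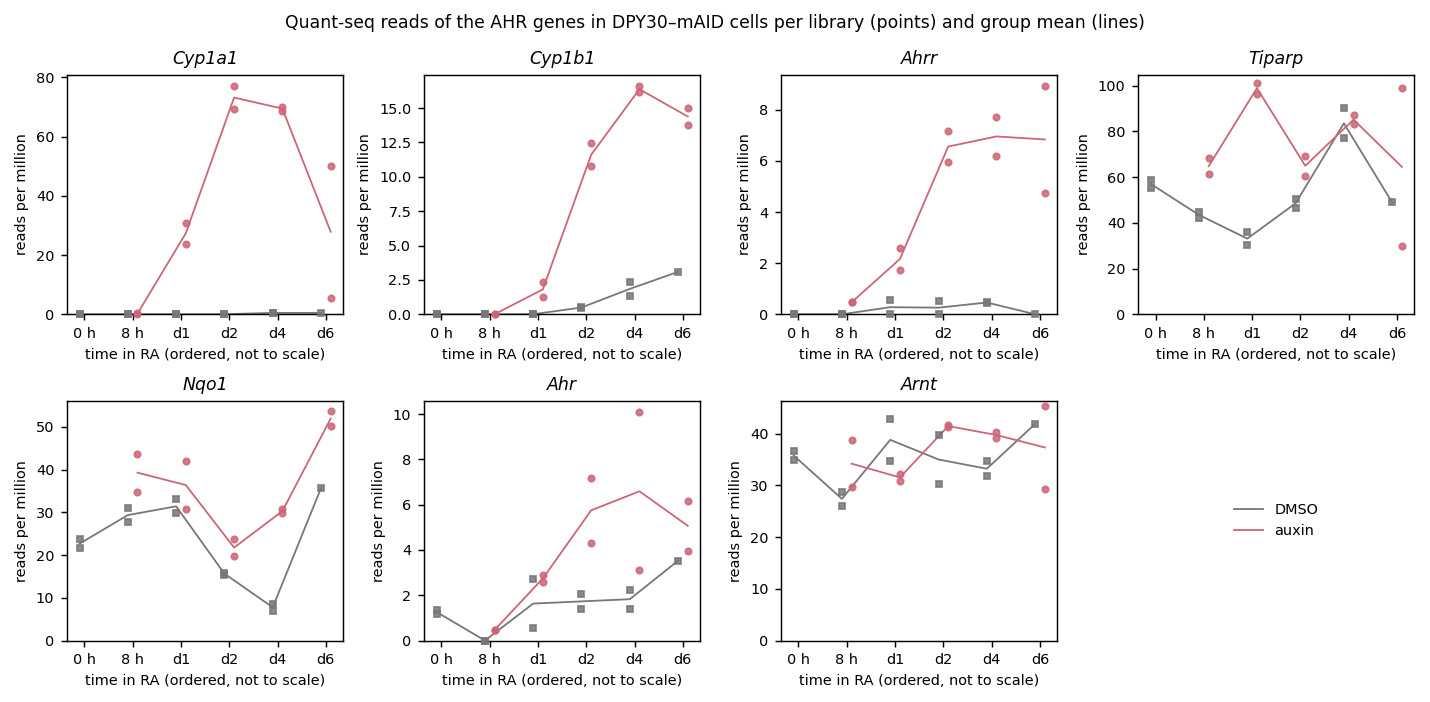
Quant-seq reads (CPM) of each of the 7 genes in DPY30–mAID cells (y axis, scaled per gene from 0) against time in RA, drawn in order and not to scale, with squares and grey lines for DMSO and circles and red lines for auxin. Points are libraries, lines join group means and day 6 of DMSO is 1 library. Cyp1a1, Cyp1b1 and Ahrr separate the arms from day 1, Tiparp does so at 96.5–101 CPM against 30.4–35.8 CPM on day 1 and overlaps on days 4 and 6, and Nqo1 is at 6.99–8.56 CPM in DMSO on day 4.

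Tiparp (ENSMUSG00000034640, chr3:65528410-65555518, plus strand), which encodes a mono-ADP-ribosyltransferase that modifies AHR and limits its activity, was abundant in every library and so can be followed in both total and T>C reads. Its 3′ UTR interval is chr3:65553566-65555518. Total Tiparp in DPY30–mAID cells was 105, 125 and 110 CPM at 0 h and 195, 148 and 202 CPM at 24 h of auxin, and the groups did not overlap. The fitted log2 fold change was 0.67 ± 0.15 (SE). RBBP5–FKBP cells had 51.7, 74.3 and 81.0 CPM at 0 h and 86.8, 63.4 and 106 CPM at 24 h, which overlap, with a log2 fold change of 0.27 ± 0.26. In dKO cells total Tiparp was 67.7 and 74.6 CPM at 0 h, and the log2 fold change was −0.12 ± 0.17 at 24 h and −0.19 ± 0.17 at 48 h.

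The reads of Tiparp with T>C conversions showed a larger contrast between the lines at 24 h. In DPY30–mAID cells 57, 98 and 82 T>C reads were counted at 0 h, 90, 103 and 67 at 2 h, 87, 55 and 71 at 8 h and 185, 132 and 214 at 24 h. These last libraries lay above all others of the line. The share of Tiparp reads with T>C was 27.3% (95% Wilson interval 24.4–30.3) over the 0 h libraries and 41.1% (38.4–43.8) over the 24 h libraries, while the share over all genes was 15.3–16.1% and 14.5–15.8%. RBBP5–FKBP cells had 35, 59 and 69 T>C reads of Tiparp at 0 h and 20, 18 and 29 at 24 h, and the share went from 29.8% (26.1–33.8) to 12.2% (9.69–15.2). The share over all genes in those libraries went from 9.10–10.1% to 4.85–5.33%. In dKO cells Tiparp had 62 and 86 T>C reads at 0 h, 58 and 46 at 24 h and 38 and 41 at 48 h.

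Scaled to all counted reads, Tiparp T>C reads of DPY30–mAID cells had a log2 fold change of 1.27 ± 0.32 after 24 h, where the median of all genes tested was −0.14. It was −1.02 ± 0.42 in RBBP5–FKBP cells and −0.46 ± 0.25 in dKO cells, where the medians were −0.91 and −0.80. The difference between the DPY30–mAID and the RBBP5–FKBP effect was 2.3 ± 0.45, beside a median of 0.62 over all genes. At 8 h Tiparp T>C reads of DPY30–mAID cells did not rise on this scale, with −0.05 ± 0.32, but the median gene changed by −0.71. Of the 12 DPY30–mAID libraries, those at 8 h also had the widest range of T>C share over all genes, 5.51–13%.

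**Figure D3:**
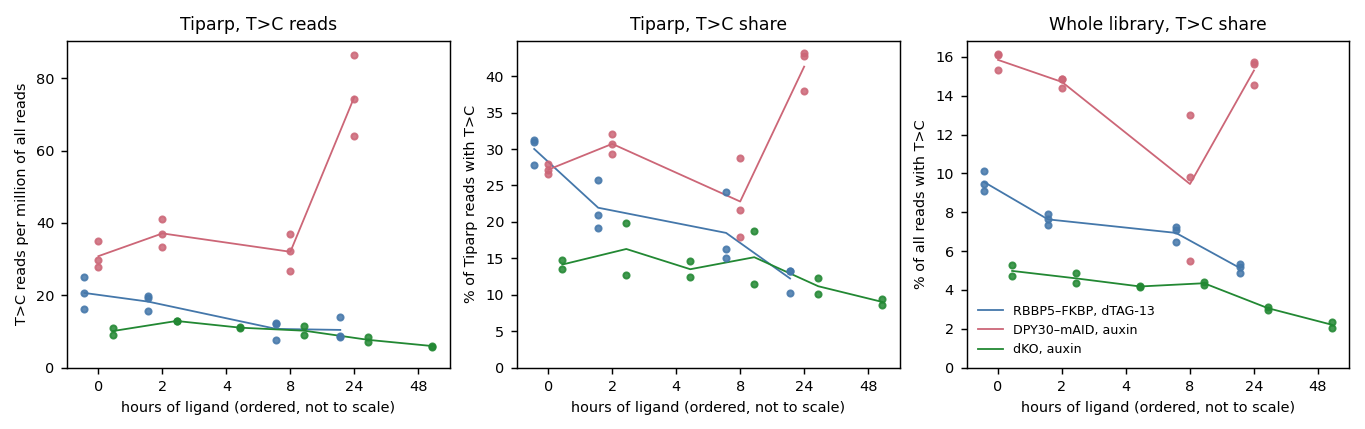
T>C reads of Tiparp in CPM of all counted reads (left), the percentage of Tiparp reads with T>C (middle) and the percentage of all reads with T>C (right) against hours of ligand, drawn in order and not to scale. Points are libraries and lines join group means for the 3 lines. The 24 h libraries of DPY30–mAID cells stand above all other libraries in the left and middle panels, and not in the right panel.

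Tiparp in RA and auxin was 61.3 and 68.3 CPM at 8 h, 101 and 96.5 on day 1, 60.6 and 69.3 on day 2, 83.1 and 87.2 on day 4 and 99.0 and 30.1 on day 6. In DMSO it was 44.9 and 42.0 CPM at 8 h, 30.4 and 35.8 on day 1, 50.5 and 46.6 on day 2, 90.1 and 76.9 on day 4 and 48.9 on day 6. The arms did not overlap at 8 h or on days 1 and 2, and overlapped on days 4 and 6. The log2 fold change of auxin against DMSO was 0.48 ± 0.25 at 8 h, 1.59 ± 0.26 on day 1, 0.31 ± 0.25 on day 2 and −0.18 ± 0.23 on day 4, where the ratio of pooled reads per counted read, without TMM scaling, was 1.02 (0.869–1.19). On day 6 it was 0.22 ± 0.31, and the library with 30.1 CPM is the one in which Cyp1a1 was also low.

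Nqo1 (ENSMUSG00000003849, chr8:107388225-107403206, minus strand), a quinone reductase that answers both to AHR and to the oxidative stress factor NRF2, was also abundant. Total Nqo1 in DPY30–mAID cells was 59.1, 60.9 and 68.1 CPM at 0 h and 113, 112 and 113 CPM at 24 h, a log2 fold change of 0.83 ± 0.19. In dKO cells it was 27.2 and 26.7 CPM at 0 h, 43.3 and 36 at 24 h and 39.6 and 39.1 at 48 h, with log2 fold changes of 0.50 ± 0.13 and 0.46 ± 0.13. Neither auxin line had overlapping groups. RBBP5–FKBP cells had 41.6, 73.3 and 48.7 CPM at 0 h and 43.0, 66.6 and 37.6 CPM at 24 h of dTAG-13, which overlapped, with a log2 fold change of −0.19 ± 0.25. The effect in DPY30–mAID cells exceeded that in RBBP5–FKBP cells by 1.02 ± 0.30. The excess was 0.75 ± 0.31 without RBBP5–FKBP 0 h replicate 2, the highest in Nqo1. It was 1.17 ± 0.31 without 0 h replicate 1, which stood apart over all genes. In Quant-seq the largest difference was on day 4, with 29.8 and 30.8 CPM in auxin against 8.56 and 6.99 CPM in DMSO, a log2 fold change of 1.74 ± 0.27. At the other times it was 0.23 to 0.37.

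Ahr itself (ENSMUSG00000019256, chr12:35497974-35535038, minus strand) was a low gene in all lines. Of its 7 annotated intervals, the 3′ UTR at chr12:35497974-35500688 held 398 of the SLAM-seq reads, and the others, which lie in coding exons, held 28, 4 and otherwise 0. In dKO cells it had 8 and 12 reads at 0 h, 28 and 34 at 24 h and 28 and 32 at 48 h, a ratio to 0 h of 3.34 (1.99–5.83) and 3.29 (1.96–5.77). In DPY30–mAID cells it had 1, 0 and 4 reads at 0 h and 19, 9 and 0 at 24 h, so the groups overlapped. RBBP5–FKBP cells had 30, 19 and 15 reads at 0 h and 7, 6 and 17 at 24 h of dTAG-13, a ratio of 0.562 (0.352–0.881), and these groups overlapped too. In Quant-seq Ahr had 5 and 17 reads with auxin on day 4 and 5 and 3 with DMSO, a ratio of 3.64 (1.56–9.45) with as many reads in the lower auxin library as in the higher DMSO library. On day 2 it had 8 and 12 reads with auxin against 4 and 3, a ratio of 3.32 (1.35–9.28), and the arms did not overlap. No Quant-seq library had more than 17 reads.

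Arnt (ENSMUSG00000015522, chr3:95434388-95497240, plus strand), the partner of AHR and of the hypoxia factors, differed between auxin and DMSO by small amounts and in both directions. Its level was 29.3–45.4 CPM in auxin and 26.0–42.9 CPM in DMSO Quant-seq libraries. At matched times the auxin libraries lay above the DMSO libraries at 8 h and on days 2 and 4, and below them on day 1, and on day 6 they lay on either side of the DMSO library. The log2 differences over the 5 times were between −0.35 and 0.23. After 24 h, RBBP5–FKBP cells gave a log2 fold change of 0.75 ± 0.34, DPY30–mAID cells 0.44 ± 0.28 and dKO cells 0.25 ± 0.18. The log2 fold change of its T>C reads was −2.14 ± 0.66 in DPY30–mAID cells after 24 h and −1.46 ± 0.56 in dKO cells after 48 h, where the median gene changed by −1.29. In the Quant-seq libraries, which had no 4SU, 3.19% of Arnt reads carried T>C against 0.346% of all reads, so part of its T>C reads are present without labelling.

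**Figure D4:**
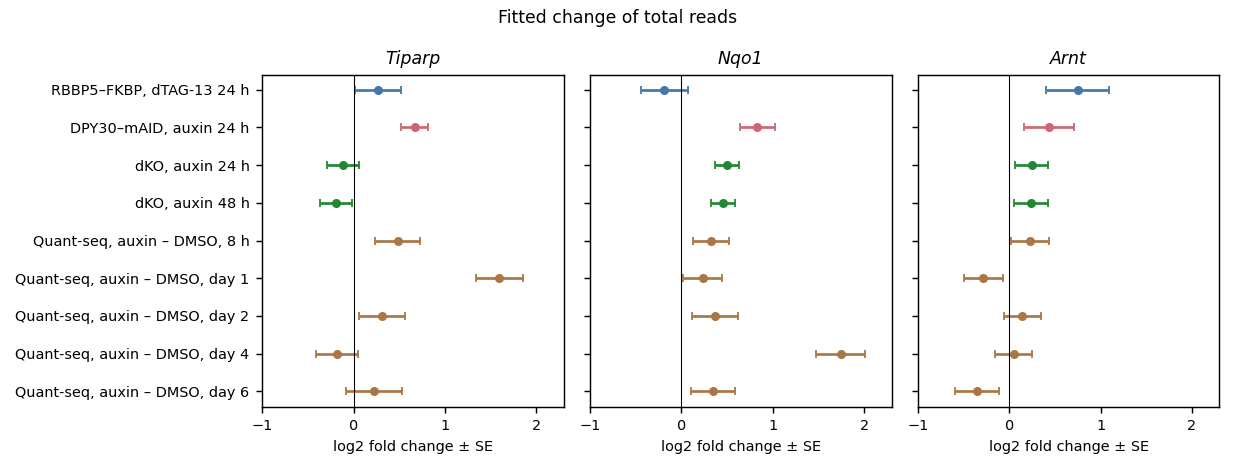
Fitted log2 fold changes of total reads with SE bars (x axis) for Tiparp, Nqo1 and Arnt, the members with many reads in every library. Each row is a comparison of a SLAM-seq line with its own 0 h or of auxin with DMSO at a time in RA, and points right of the line at 0 are higher with the ligand. Tiparp on day 1 (1.59) and Nqo1 on day 4 (1.74) lie furthest right, and Arnt lies within 1 of 0 in all comparisons.

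Genes were called where the adjusted p of edgeR's quasi-likelihood test was below 0.05 and the fold change passed 2 in either direction. As a description, 2 of the 7 genes were called higher with auxin than with DMSO on day 1 (background of all genes called higher 0.894%), 3 on day 2 (2.71%), 4 on day 4 (4.42%), 3 on day 6 (4.21%) and 0 at 8 h (0.0175%). In Quant-seq Cyp1a1, Cyp1b1, Ahrr and Ahr passed the filter of a mean of 10 reads in a group only through auxin groups. In dKO cells all 7 passed it, Cyp1a1, Cyp1b1 and Ahrr only through auxin groups, and 3 were called higher at 24 h (0.869%) and 4 at 48 h (1.66%). DPY30–mAID and RBBP5–FKBP fits each held 4 of the 7 genes, of which 1, Cyp1b1, which passed the filter through its 24 h auxin group, was called higher at 24 h in the former (6.16%) and 0 in the latter (1.63%). The difference between DPY30–mAID and RBBP5–FKBP effects at 24 h was called for 1 gene in total reads (Nqo1, background 3.97%) and for 1 gene in T>C reads (Tiparp, 11.2%). Against their own 0 h, T>C reads were called higher for Tiparp in DPY30–mAID cells at 24 h (0.807%) and for Cyp1a1 in dKO cells at 24 h (0.117%) and 48 h (0.117%), and lower for Arnt in dKO cells at 48 h (64.4%). The Nqo1 call was lost in 4 fits without 1 library, with log2 differences of 0.75 to 0.99, namely without DPY30–mAID 0 h replicate 1, RBBP5–FKBP 0 h replicate 2 or RBBP5–FKBP 24 h replicate 1 or 3. The Tiparp call in DPY30–mAID T>C reads was lost in 5 of 6 fits without 1 library, with log2 fold changes of 1.14 to 1.37, and that of Cyp1b1 was lost without 0 h replicate 2 (2.59) or replicate 3 (2.31), while without 24 h replicate 3 the gene missed the filter. These comparisons chose the genes, so the counts are given only as a description.

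Untreated cells of the 3 lines differed in several of these genes. These libraries are also the starting points of the ligand time courses that chose the genes, so the differences are given without p-values. Ahr at 0 h was 13.9, 6.66 and 5.45 CPM in RBBP5–FKBP cells, 0.488, 0 and 1.45 CPM in DPY30–mAID cells and 1.18 and 1.54 CPM in dKO cells. RBBP5–FKBP cells lay above both other lines with no overlap. The log2 difference was 3.64 ± 1.00 against DPY30–mAID cells, which was called (background of genes called higher 3.74%). It was 3.12 ± 1.06 without RBBP5–FKBP replicate 1, which stood apart, and was still called. dKO cells had less Ahr than RBBP5–FKBP cells by a log2 difference of −2.59 ± 0.95, which was called (background of genes called lower 11.1%). That call was lost without RBBP5–FKBP replicate 1 (−2.08 ± 0.99) or without either dKO replicate. Nqo1 was lower in dKO than in DPY30–mAID cells by −1.20 ± 0.24 in total reads (background of genes called lower 9.08%), where line and library type cannot be told apart. Tiparp was lower than in DPY30–mAID cells by −0.73 ± 0.20 in RBBP5–FKBP cells and by −0.65 ± 0.22 in dKO cells, both short of a 2-fold change. Cyp1a1 had 1 read in all 8 of these libraries, so no difference was detectable.

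Levels during differentiation in DMSO, without auxin, are given without p-values, because the same libraries stand against auxin in the comparison that chose the genes. Nqo1 was 23.7 and 21.6 CPM at 0 h, 27.7 and 31.1 at 8 h, 33.1 and 29.8 on day 1, 15.5 and 15.9 on day 2, 8.56 and 6.99 on day 4 and 35.7 on day 6. Day 4 was the lowest, with a log2 fold change of −1.71 ± 0.26 against 0 h. Cyp1b1 had 0 reads at 0 h, 3 and 5 on day 4 and 7 in the library of day 6, which is at least 2.92-fold and at least 4.91-fold higher. Tiparp on day 1 had a log2 fold change of −0.78 ± 0.27. Cyp1a1 had 3 reads and Ahrr 4 reads in all 11 DMSO libraries, so no change with RA was detectable. The 6 primitive endoderm markers summed to 9.62 CPM (median of libraries) at 0 h, 380 on day 2, 1532 on day 4 and 3057 on day 6 in DMSO, and to 245, 619 and 719 CPM on days 2, 4 and 6 in auxin. Markers of mES cells summed to 4349, 3504 and 1866 CPM in DMSO and to 3190, 2334 and 2050 CPM in auxin on the same days, and on day 1 to 7543 CPM in DMSO and 5072 CPM in auxin. The 6 neural markers summed to 68.6, 115, 89.7 and 33.5 CPM in DMSO and to 100, 137, 97.7 and 80.0 CPM in auxin on days 1, 2, 4 and 6. Trophectoderm markers summed to 12.0, 25.4, 36.5 and 48.9 CPM in DMSO and to 5.46, 27.3, 27.6 and 65.5 CPM in auxin on the same days. The 6 fibroblast markers summed to 8.08, 35.2 and 33 CPM in DMSO and to 22.8, 56.1 and 70.1 CPM in auxin on days 2, 4 and 6. The part of these differences in cell makeup in the auxin values of the 7 genes was not tested.

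The auxin effect in dKO cells was also compared with that in DPY30–mAID cells, as a description, because both entered the choice. In total reads none of the 7 genes was called at 2, 8 or 24 h (background in either direction 0%, 0.484% and 4.48%), nor with the Wald test of DESeq2. For Tiparp at 24 h the fitted effects differed by −0.79 ± 0.30. Cyp1a1 at 24 h was 6.89 times as high in dKO as in DPY30–mAID cells per counted read (counting interval 4.21–12.0), but with 1 and 0 reads at 0 h the difference of the fold changes, 1.12 ± 3.29, was not determined. In T>C reads Tiparp differed at 24 h by −1.73 ± 0.48, which was called (background of genes called lower 1.35%), with a median of −0.70 over all genes. That call was lost in each of the 10 fits that left out 1 library of the groups compared. With library sizes scaled to T>C reads, an alternative chosen after seeing the data, the difference was −1.09 and not called. Over all 16 alternatives the difference lay between −1.85 and −1.09.

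Other genes of the pathway were described by lists. Of 15 further AHR targets, 6 had enough reads to be tested in Quant-seq, and Cyp1a2, the liver CYP1 enzyme, was the clearest. Cyp1a2 had 31 and 29 reads with auxin on day 2 against 3 and 0 with DMSO, a ratio of 23.2 (7.57–116), and it entered the fit only through its auxin groups. It had 13 and 8 reads against 1 and 0 on day 4, and 10 and 10 against 1 on day 6, while on day 1 it had 3 and 5 against 2 and 1. Aldh3a1, an aldehyde dehydrogenase, had 9 and 13 reads against 0 and 1 on day 2. At the neighbouring times the arms were close, with 8 and 1 against 2 and 6 reads on day 1 and 3 and 3 against 1 and 4 on day 4. Cyp2s1, a CYP of epithelia, was higher on day 4 by 2.47 ± 0.61 on the log2 scale and on day 6 by 2.25 ± 0.54. The backgrounds of genes called higher were 4.42% and 4.21%. Of the same list, Slc7a5, an amino acid transporter gene, was lower on day 4 (background of genes called lower 2.88%) and Nfe2l2, which encodes NRF2, on day 6 (5.97%). The median of the tested list was 0.31 on day 2, 0.21 on day 4 and 1.17 on day 6, and that of all genes 0.01, −0.03 and −0.03.

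In SLAM-seq the median log2 fold change of the tested list at 24 h was −0.40 in DPY30–mAID, 0.06 in dKO and 0.50 in RBBP5–FKBP cells, against 0.01, 0.01 and 0.02 for all genes. Aldh3a1 was the only one of 5 tested genes called at 24 h in DPY30–mAID cells, with 15, 12 and 9 reads against 0, 3 and 0 at 0 h (background of genes called higher 6.16%), and it entered that fit only through its auxin group. RBBP5–FKBP cells had Aldh3a1 at 2.31–6.31 CPM before dTAG-13 and 1.66–8.86 CPM with it, so the gene was present there without auxin. Cyp1a2 had no read in the 12 DPY30–mAID libraries, and none of the 4 genes tested in dKO cells was called at 24 or 48 h.

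Of the chaperone genes Hsp90aa1, Hsp90ab1 and Ptges3 (p23), none was called in any line against its own 0 h or between auxin and DMSO in total reads. Of 8 ARNT partners and relatives, 5 to 6 were tested. Epas1, a hypoxia factor, was higher in DPY30–mAID cells at 8 h (background of genes called higher 2.26%) and the clock gene Arntl was lower in auxin than DMSO on days 1 and 6 (background of genes called lower 1.54% and 5.97%). Of 13 NRF2 targets, which Nqo1 also belongs to, 11 to 12 were tested. In DPY30–mAID cells at 24 h the glutathione reductase gene Gsr and G6pdx of the pentose phosphate pathway were lower (background 7.06%) and none was higher, with a list median of −0.35 against 0.01 for all genes. In dKO cells at 48 h Slc7a11, the cystine transporter gene, was higher (background of genes called higher 1.66%). In auxin on day 6 Slc7a11 was higher (background 4.21%) and Gsr and Srxn1 were lower (background 5.97%). In RBBP5–FKBP cells Srxn1 was lower at 8 h (background of genes called lower 2.1%).

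In DMSO, without auxin, single genes of these lists were called. Of the 6 further AHR targets tested, 2, 3, 2, 2 and 2 were lower than at 0 h at 8 h and on days 1, 2, 4 and 6, and 0 were higher. Of the 5 ARNT partners and relatives tested, 2, 1, 2 and 3 were higher and 1, 1, 1 and 0 lower on days 1, 2, 4 and 6. Hsp90aa1, a cytosolic chaperone of AHR, was lower than at 0 h on days 1, 2, 4 and 6, and Socs2, a cytokine signalling inhibitor among the listed AHR targets, was lower on each of these days and at 8 h. The background of genes called lower was 3.03% at 8 h, and 12.3%, 9.97%, 11.1% and 14.4% on days 1, 2, 4 and 6. Arnt2, the neural relative of Arnt, was higher on the same days, with backgrounds of 17.1%, 16.3%, 19.6% and 22.6%. Cyp2s1, which was higher with auxin on day 4, was lower than at 0 h in DMSO on days 1, 2 and 4.

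As a description of likeness, the change of each gene from its own 0 h mean was correlated over the 36 SLAM-seq libraries with those of 11555 genes. Cyp1a1 was closest to Olfr1265 (Pearson r = 0.82), Rtl4 (0.81) and Klf6 (0.81), and Cyp1b1 to Klf6 (0.82), Itga4 (0.69) and Arid4b (0.68). Tiparp was closest to Hibadh (0.83), Gtf2b (0.78) and Arhgap19 (0.77), and Nqo1 to Med1 (0.76) and Csrnp1 (0.75). For Ahr the closest was Eef2k (0.78), for Ahrr Uhmk1 (0.64) and for Arnt Aurkb (0.73). The points share lines, libraries and depth, and low genes share zeros.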

How the data were processed

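The authors deposited counts of total reads and of T>C reads per annotated 3′ UTR interval (vM14) on mm10 for 36 SLAM-seq and 22 Quant-seq libraries. Per the file headers SlamDunk 0.3.4 made the tables, and the submitters' processing notes name HISAT2 2.2.1, featureCounts, Trim Galore and cutadapt. Intervals were summed to 20177 genes by Ensembl ID. CPM are reads scaled to 1000000 counted reads of the library (depths at the start of the report). The libraries of each line, all 36 SLAM-seq libraries and the 21 distinct Quant-seq libraries were each fitted with edgeR 4.0.16 (quasi-likelihood test, R 4.3.3, limma 3.58.1, Benjamini-Hochberg over all genes tested), with genes of a mean of at least 10 reads in a group, TMM factors from total reads, and total reads as library size for T>C reads. Each fit was tested on simulated counts. Ratios of pooled reads carry 95% exact binomial intervals, T>C shares Wilson intervals. Groups at 0 were taken at 3 counts over the group. Start regions came from RefSeq (GRCm38.p6), and Ahr had no entry. Tables and figures used Python 3.11.15, numpy 2.4.6, pandas 2.3.3, scipy 1.17.1 and matplotlib 3.10.9.

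The members and the lists of pathway genes and cell markers were chosen with earlier results of these data known. Genes named are the 7 members, called genes of the lists, and for each member up to 3 genes of highest correlation. Some genes that this rule names are not reported here. Groups and replicate numbers came from the labels. Deviations of libraries with the same number had a mean r of −0.000442 in Quant-seq, 0.0038 in DPY30–mAID, 0.0652 in dKO and −0.020 in RBBP5–FKBP libraries, and not every pair was above 0.1, so no pairing was used. Alternatives were DESeq2 1.42.0 (Wald test and size factors), library sizes without TMM, TMM from T>C reads, no filter, 2 groups alone, a replicate block and leaving out each library.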

Additional observations from a re-analysis of the deposited data

Results flagged for a closer look

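The T>C reads of Tiparp at 24 h were flagged because the fitted auxin effect differed between dKO and DPY30–mAID cells, by −1.73 on the log2 scale. The values of these lines entered the choice of the genes, so no p is given. The difference missed the threshold in 14 of 16 alternatives.

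In the next cases every library of one line lay above, and every library of another below, the mean of its own 0 h libraries, and no test of the difference is given, because these contrasts chose the genes. Ahr at 24 h changed by a mean of 3.23 CPM in dKO and −3.96 CPM in RBBP5–FKBP cells. The RBBP5–FKBP 0 h libraries were at 13.9, 6.66 and 5.45 CPM, and a 24 h library at 8.19 CPM lay above all but the highest. Nqo1 at 8 h changed by 4.77 CPM in dKO and −11.5 CPM in RBBP5–FKBP cells. There the RBBP5–FKBP 0 h libraries were at 41.6, 73.3 and 48.7 CPM, and an 8 h library at 49.0 CPM lay above all but the highest. T>C reads of Tiparp at 2 h changed by 6.29 CPM in DPY30–mAID, 2.80 CPM in dKO and −2.41 CPM in RBBP5–FKBP cells, and at 24 h by 44.0 CPM in DPY30–mAID and −10.2 CPM in RBBP5–FKBP cells, with a fitted log2 difference between their effects of 2.3 ± 0.45. In dKO cells both 24 h libraries lay below the 0 h mean, with means of 10.1 CPM at 0 h and 7.65 CPM at 24 h. The T>C share of all reads changed too. At 0, 2 and 24 h it was 9.10–10.1%, 7.36–7.91% and 4.85–5.33% in RBBP5–FKBP cells. It was 4.69–5.27%, 4.34–4.85% and 2.98–3.13% in dKO cells. For DPY30–mAID cells it was 15.3–16.1%, 14.4–14.9% and 14.5–15.8%. Its part in the Tiparp values was not tested.

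Arnt carried T>C conversions in Quant-seq libraries, which had no 4SU. The share was 3.19% (46 of 1442 reads, 95% Wilson interval 2.40–4.23), against 0.346% over all genes. It was 3.02% of 630 reads with auxin and 3.33% of 812 reads with DMSO, while Tiparp had 0 of 2546 and Nqo1 0 of 1136.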

How the results depend on the processing

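Calls of members are counted over all contrasts of a comparison. Of the alternatives tried on member values, 369 kept direction and side of the threshold, 51 lost the call, 3 gained it and 0 reversed. With DESeq2, member calls moved from 1 to 2 in T>C reads of DPY30–mAID cells, from 0 to 1 in RBBP5–FKBP cells, and from 1 to 2 in T>C reads and 1 to 3 in total reads for auxin against dTAG-13, and calls of all genes from 2834 to 1374 in Quant-seq auxin against DMSO, from 450 to 255 in total reads of dKO cells and from 111 to 484 for dKO against DPY30–mAID in T>C reads. DESeq2 gave no adjusted p for 4 of 12 Quant-seq and 4 of 7 dKO member calls. With TMM from T>C reads, calls of all genes moved from 1150 to 766 in DPY30–mAID, from 5552 to 448 in dKO, from 1377 to 160 in RBBP5–FKBP cells, from 855 to 498 for auxin against dTAG-13 and from 111 to 35 for dKO against DPY30–mAID, and member calls from 1 to 3, 1 to 2 and 1 to 0 in DPY30–mAID cells and in those comparisons between lines, which were added after seeing the data. Without TMM the dKO against DPY30–mAID comparison of T>C reads had 61 calls and 0 of members. Without a filter, member calls were 0 there, 0 in total reads of DPY30–mAID cells and 2 in total reads for auxin against dTAG-13. With 2 groups fitted alone, T>C reads of DPY30–mAID cells had 3.

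Replicate numbers did not pair the libraries, which share only a number. With the replicate block, member calls were 2 in T>C reads of DPY30–mAID cells, 2 for auxin against dTAG-13 in T>C reads, 0 for dKO against DPY30–mAID in T>C reads and 0 in total reads of DPY30–mAID cells. The block, chosen after seeing the data for the 0 h libraries, lost the call of Ahr between RBBP5–FKBP and DPY30–mAID cells (3.36).

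Leaving out 1 library gave 605–2112 calls of all genes and 0–1 of members in T>C reads of DPY30–mAID cells, 1–4 of members in T>C reads of dKO cells, 17–393 calls and 0–1 of members for dKO against DPY30–mAID in T>C reads, and 321–649 calls in total reads. Member calls were 1–2 in T>C and 0–2 in total reads for auxin against dTAG-13, 0–1 in total reads of DPY30–mAID cells and 4–7 in those of dKO cells. Depth limits Cyp1a1, Cyp1b1, Ahr and Ahrr, which had under 10 reads in most libraries without auxin.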
